A study of Mus musculus with 6 samples.

Results

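The gasdermin genes encode a family of pore-forming proteins, and 7 of the 8 mouse genes listed here (Gsdma, Gsdma2, Gsdma3, Gsdmc, Gsdmc2, Gsdmc3, Gsdmc4 and Gsdmd) could be described by a probe set of their own, among 19938 genes in all. Gsdmc3 had none and was read only through a probe set that it shares with Gsdmc2 and Gsdmc4. The family was chosen by the log2 difference of Gsdmc2 between the tumour groups, among the largest increases of the comparison below, so the values of its members are a description and carry no test.

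RNA of 6 mouse colon tumours was hybridised to arrays. The 3 control tumours were Dnmt1chip/+; ApcMin/+ and the 3 hypomethylated tumours Dnmt1chip/c; ApcMin/+. Dnmt1 encodes the methyltransferase that copies DNA methylation after replication, chip is a hypomorphic allele and c a conventional knockout, so all mice carried chip on 1 chromosome. ApcMin, a mutation of the tumour suppressor gene Apc, was carried by all of them as well, and neither alteration is described as limited to a tissue. All were hybrids of a C57BL/6 parent (c and ApcMin) and a 129Sv4 parent (chip). Mice of both genotypes were given 2% (w/v) dextran sodium sulfate, which injures the colon epithelium and promotes tumours, when 6 weeks old, and tumours were collected when the mice were 20 weeks old. The question addressed is what reduced DNA methylation does to gene expression and differentiation in these tumours.

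A gasdermin consists of an amino-terminal domain that can form membrane pores and a carboxy-terminal domain that holds it inactive. A protease cuts the linker between them, the freed domain assembles into pores in the plasma membrane, and the cell releases interleukin-1 cytokines and can die by pyroptosis, a lytic inflammatory death. Gsdmd is the target of the inflammatory caspases that inflammasomes activate, Gsdma and its relatives are best known from skin and the upper digestive tract, and the Gsdmc genes are known from the intestinal epithelium, where type 2 cytokines raise them.

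Promoters are shown for the 3 gasdermin genes found in the RefSeq promoter table (build GRCm38.p6), because the study altered DNA methylation and methylation falls on CpG. Each window runs from 250 bases before to 50 bases after the annotated start, printed 5′ to 3′ on the gene's strand, with every CpG in capitals. The windows are chr15:63878509-63878808 (minus strand) for Gsdmc3, chr11:98626099-98626398 (plus strand) for Gsdma3 and chr6:50261720-50262019 (minus strand) for Gsdme, a family gene outside the list.
Gsdmc3: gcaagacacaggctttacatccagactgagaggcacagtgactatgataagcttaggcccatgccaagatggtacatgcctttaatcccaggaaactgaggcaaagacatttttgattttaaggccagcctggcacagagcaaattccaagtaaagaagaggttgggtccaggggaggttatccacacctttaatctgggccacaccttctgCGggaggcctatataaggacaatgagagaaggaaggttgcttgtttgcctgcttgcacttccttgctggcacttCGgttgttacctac
Gsdma3: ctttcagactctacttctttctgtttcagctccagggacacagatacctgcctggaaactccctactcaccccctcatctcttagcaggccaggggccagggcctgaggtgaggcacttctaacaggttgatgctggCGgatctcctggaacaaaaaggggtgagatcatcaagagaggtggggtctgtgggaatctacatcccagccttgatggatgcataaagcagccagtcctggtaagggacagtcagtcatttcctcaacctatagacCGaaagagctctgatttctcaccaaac
Gsdme: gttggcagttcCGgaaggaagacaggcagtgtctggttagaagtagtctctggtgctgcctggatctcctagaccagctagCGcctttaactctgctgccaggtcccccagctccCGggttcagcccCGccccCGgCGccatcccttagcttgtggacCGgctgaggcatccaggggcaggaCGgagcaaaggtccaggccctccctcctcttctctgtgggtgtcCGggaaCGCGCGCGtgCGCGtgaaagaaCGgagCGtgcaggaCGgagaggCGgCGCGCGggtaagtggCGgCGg

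The Gsdmc3 and Gsdma3 windows each held 2 CpG, and 23.3% of the 32851 promoter windows of the table held as few or fewer. The Gsdme window held 24 CpG, and 80.0% of windows held fewer. The median over all windows was 7 CpG. Motifs were searched on both strands. The letters TATAA of a TATA box occurred once in the Gsdmc3 window, beginning 27 bases before the start, and in neither of the other windows; 24.9% of all windows hold them. The motif of STAT6, the factor that carries interleukin-4 and interleukin-13 signals (TTC and GAA with 4 bases of any kind between them), was absent from all 3 windows and present in 7.0% of all windows. TTTATNG, bound by CDX factors, was also absent from the 3 windows and is held by 10.9% of all windows. The motif of interferon regulatory factors (GAAA and GAAA with 2 bases of any kind between them) matched once, in Gsdma3, and is held by 3.4% of all windows. No 2 matches overlapped.

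The deposited values are read as log2 values, from which the median of the 6 arrays had been subtracted for every probe set. They give differences between tumours and no level, so the genes cannot be ordered by abundance. With 6 arrays the centring also sets the middle pair of tumours of a probe set at equal distances on either side of 0. Dnmt1 itself was lower in the hypomethylated tumours, by a difference of -0.87 ± 0.06 (SE) on the log2 scale (limma, adjusted p = 3.13e-04), though its probes may lie outside the part of the gene that the alleles alter. Epcam, a defining epithelial marker, differed by 0.06 ± 0.06 (SE, limma adjusted p = 0.453). Of 10 epithelial markers 8 were called higher, beside 10.7% of all genes. With no level kept, the tissue label cannot be checked further. No label states whether each tumour is from a mouse of its own. Their descriptions carry 1 number shared by all hypomethylated tumours and 1 shared by control tumours 1 and 2, with another for control tumour 3. If these numbers mark mice, the spread among hypomethylated tumours is wholly within 1 mouse, and mouse and genotype cannot be told apart. The spread among control tumours would then be partly within a mouse.

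Of the 7 measured members, Gsdmc, Gsdmc2, Gsdmc4 and Gsdmd were higher in the hypomethylated tumours, Gsdma and Gsdma2 were lower, and Gsdma3 overlapped between the groups. By limma at an adjusted p under 0.05, 4 members were called higher and 2 lower. Over all 19938 genes 32% were called, 10.7% higher and 21.3% lower. The groups did not overlap in 6 of the 7 members (4 higher, 2 lower), and in 46.4% of all genes (17.9% higher, 28.5% lower). The median difference of the 7 was 0.60 on the log2 scale, against -0.01 over all genes. Since the choice of the family used this comparison, nothing is read from these counts.

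**Figure D1:**
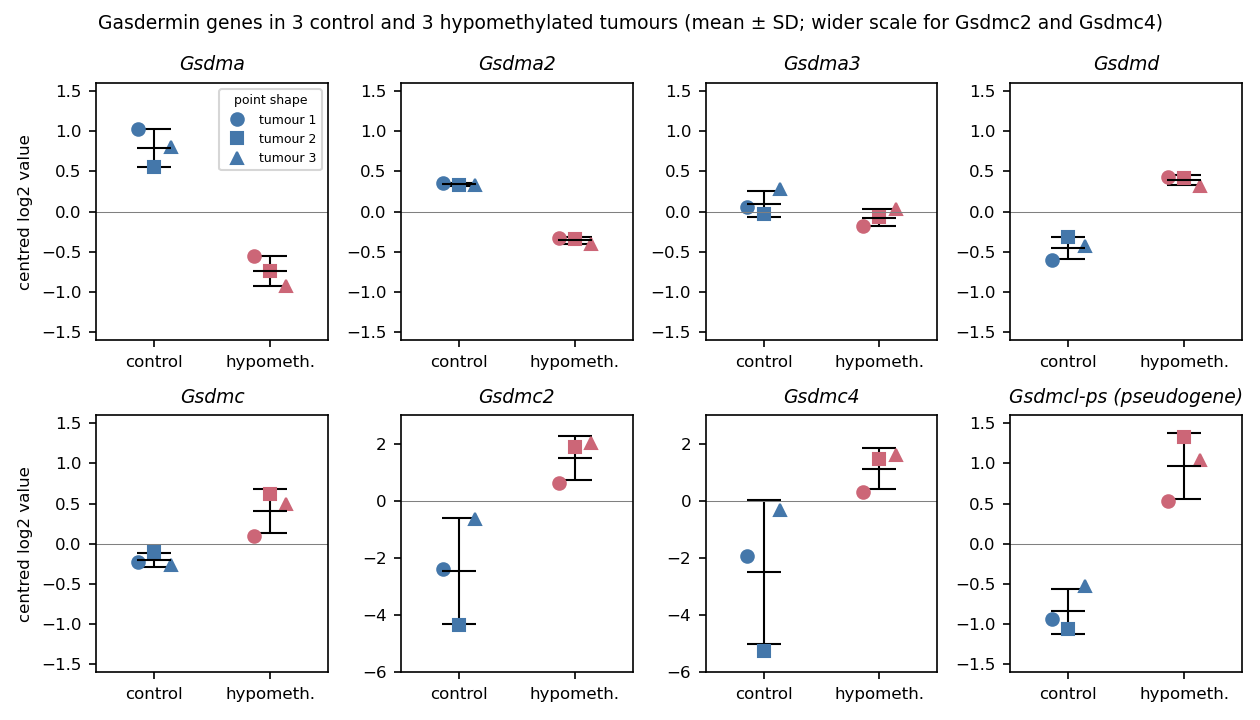
Centred log2 values (vertical axis) of the 7 measured gasdermin genes and the pseudogene Gsdmcl-ps in control (blue) and hypomethylated (red) tumours; each point is 1 tumour, bars are the mean ± SD of 3 tumours, and Gsdmc2 and Gsdmc4 have a wider scale. Gsdma and Gsdma2 lie lower in the hypomethylated tumours, Gsdmd and the Gsdmc genes higher, and the control tumours of Gsdmc2 spread from -4.35 to -0.64.

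Gsdmc2 had centred log2 values of -2.38, -4.35 and -0.64 in control tumours 1, 2 and 3 and of 0.64, 1.88 and 2.02 in hypomethylated tumours 1, 2 and 3. The control tumours were widely spread, with control tumour 2 the lowest. Control tumour 3 and hypomethylated tumour 1 were the nearest across the groups, with a gap of 1.27. The control mean was -2.46 ± 1.86 (SD, n = 3) and the hypomethylated mean 1.51 ± 0.76 (SD, n = 3). The difference was 3.97 ± 0.88 (SE), a 15.7-fold higher level in the hypomethylated tumours, which ranked 11 by size among all genes. Without control tumour 2 the difference was 3.02, or 8.12-fold. It was 4.88 without control tumour 3 and 2.93 under quantile normalization of the arrays.

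Gsdmc4, from the same cluster as Gsdmc2, followed the same order of tumours. Its values were -1.93, -5.25 and -0.31 in control tumours 1, 2 and 3 and 0.31, 1.47 and 1.61 in the hypomethylated tumours. The groups did not overlap, but the gap between them was 0.61, smaller than either group's SD. The control mean was -2.50 ± 2.52 (SD, n = 3) and the hypomethylated mean 1.13 ± 0.72 (SD, n = 3), and the difference was 3.62 ± 1.14 (SE), or 12.3-fold. Its range over the 6 tumours, 6.86, was the 2nd widest of all genes, and that of Gsdmc2, 6.37, the 4th widest. Without control tumour 2 the difference of Gsdmc4 was 2.25, or 4.74-fold, without control tumour 3 it was 4.72, and under quantile normalization 2.51. Its call was lost without control tumour 1, without any 1 hypomethylated tumour and with robust eBayes, a limma setting that allows for genes of outlying variance (adjusted p = 0.0858).

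Probe sets that carry several Gsdmc symbols were read apart. The probe set of Gsdmc2, Gsdmc3 and Gsdmc4 had values of -2.10, -4.03 and -0.54 in the control tumours, against 0.54, 1.99 and 1.96 in the hypomethylated tumours. The groups did not overlap, and control tumour 2 was again the lowest. The difference was 3.72 ± 0.86 (SE), 13.2-fold, and it is the only value that bears on Gsdmc3, which cannot be told from its paralogues in it. It was 2.82 without control tumour 2, 4.56 without control tumour 3 and 2.74 under quantile normalization. The probe set of Gsdmc2 and Gsdmc4 had values of -1.93, -3.25 and -0.33 against 0.33, 2.00 and 2.15, and a difference of 3.33 ± 0.79 (SE), 10.1-fold; without control tumour 2 it was 2.62, without control tumour 3 4.08 and under quantile normalization 2.48. Both shared probe sets carry the Gsdmc2 symbol, by which the family was chosen, so nothing is read from their calls. Both were called higher in the fit over all 28856 probe sets, where 9.93% were. In that fit Gsdmc4 itself had an adjusted p = 0.0629 by limma, above the threshold. Neither of these shared probe sets was called without control tumour 1, hypomethylated tumour 2 or hypomethylated tumour 3, and 1 was called without control tumour 2.

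The 4 probe sets for Gsdmc2, Gsdmc3 and Gsdmc4 agreed closely within most tumours. They spanned 0.33 in control tumour 3 and in hypomethylated tumour 1, between 0.45 and 0.54 in control tumour 1 and hypomethylated tumours 2 and 3, and 2.00 in control tumour 2. In that tumour Gsdmc4 was the lowest at -5.25 and the shared probe set of Gsdmc2 and Gsdmc4 the highest at -3.25. Their transcripts are close paralogues whose sequences the probes may share, so the 4 readings are not independent.

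**Figure D2:**
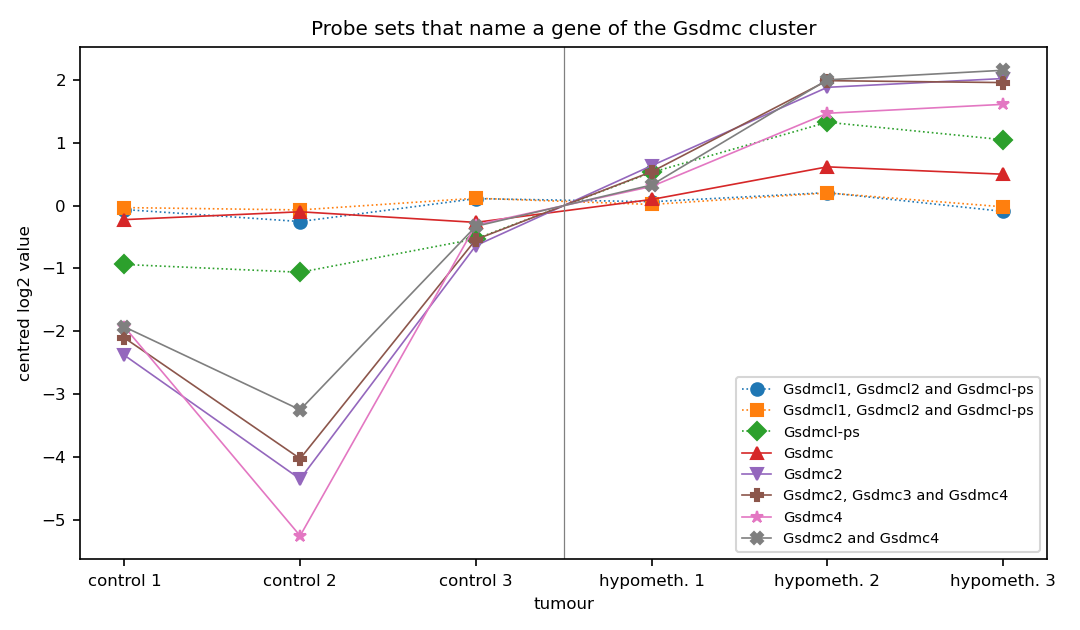
Centred log2 values (vertical axis) of the 8 probe sets that name a gene or pseudogene of the Gsdmc cluster, by tumour; lines only join the points of a probe set, and dotted lines mark pseudogenes. The 4 probe sets for Gsdmc2, Gsdmc3 and Gsdmc4 run together and lie lowest in control tumour 2, whereas Gsdmc and the shared pseudogene probe sets change little on this scale.

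Gsdmc, the first gene of the cluster, had a smaller difference and another order of tumours. Its values were -0.22, -0.10 and -0.27 in the control tumours, against 0.10, 0.62 and 0.50 in the hypomethylated tumours. The groups did not overlap, with a gap of 0.20, and control tumour 2 was the highest of the controls, not the lowest. The control mean was -0.20 ± 0.09 (SD, n = 3) and the hypomethylated mean 0.40 ± 0.27 (SD, n = 3), with a difference of 0.60 ± 0.13 (SE), or 1.52-fold. Its call was lost without control tumour 1.

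The pseudogene Gsdmcl-ps at the other end of the cluster, which was named after its values were seen, also had separate groups. Its values were -0.94, -1.06 and -0.53 in the control tumours, against 0.53, 1.33 and 1.05 in the hypomethylated tumours, a difference of 1.81 ± 0.22 (SE), 3.51-fold. The 2 probe sets that carry Gsdmcl1, Gsdmcl2 and Gsdmcl-ps together overlapped between the groups, with differences of 0.13 ± 0.11 (SE) and 0.06 ± 0.08 (SE), and were not called. Probe sets with the Gsdmcl-ps symbol therefore gave different readings.

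In the RefSeq annotation the cluster on chromosome 15 runs Gsdmc, Gsdmc2, Gsdmcl1, Gsdmc3, Gsdmcl2, Gsdmc4 and Gsdmcl-ps. Of the 5 nearest measured genes on each side, none was called higher (1 at an unadjusted p under 0.05) and 3 were lower (limma, adjusted p under 0.05), beside 10.7% and 21.3% of all genes, and their median difference was 0.06. The lower ones were Adcy8, an adenylate cyclase, at -1.03 ± 0.17 (SE; limma, adjusted p = 0.00427), Cyrib, which binds the GTPase Rac, at -0.43 ± 0.08 (adjusted p = 0.00768), and 9930014A18Rik at -0.30 ± 0.06 (adjusted p = 0.0104), a call lost without control tumour 1.

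**Figure D3:**
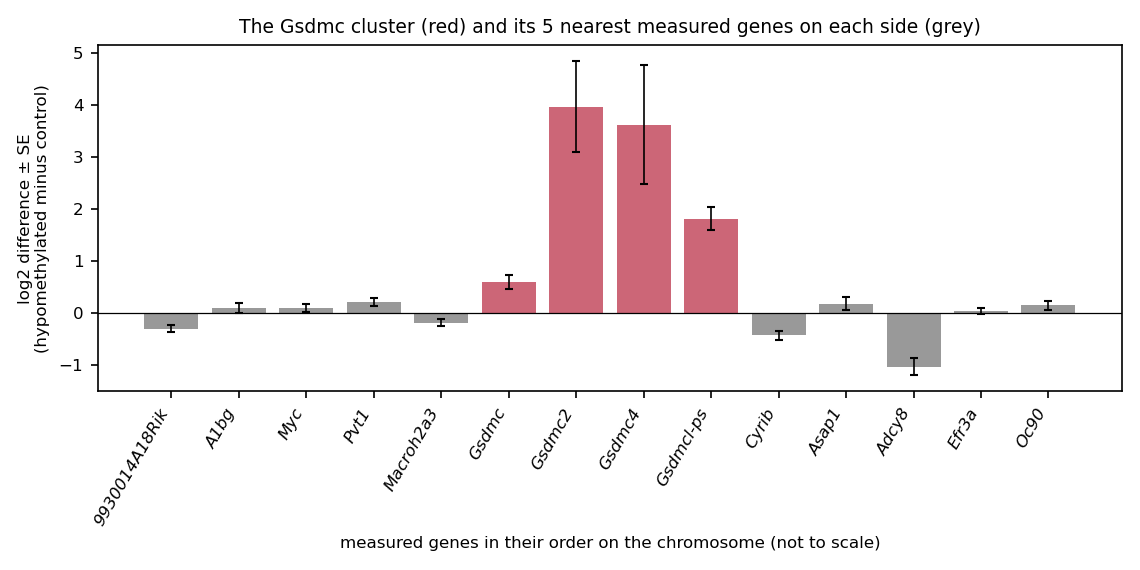
Log2 difference ± SE, hypomethylated minus control (vertical axis), of the measured genes of the Gsdmc cluster (red) and of the 5 nearest measured genes on each side (grey), in chromosome order and not to scale. Gsdmc2 and Gsdmc4 stand at 3.97 and 3.62 beside flanking genes between -1.03 and 0.21.

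Gsdmd, the gasdermin cut by inflammatory caspases, lies elsewhere on chromosome 15 and was higher by a smaller amount with little spread. Its values were -0.60, -0.32 and -0.43 in the control tumours, against 0.43, 0.42 and 0.32 in the hypomethylated tumours. The groups were well separated, and control tumour 2 was the highest control. The control mean was -0.45 ± 0.14 (SD, n = 3) and the hypomethylated mean 0.39 ± 0.06 (SD, n = 3), and the difference was 0.84 ± 0.08 (SE), 1.79-fold. It lay between 0.77 and 0.94 under all 13 alternatives. Of its 10 measured neighbours 2 were called higher and 1 lower, beside 10.7% and 21.3% of all genes: Gfus, an enzyme of GDP-fucose synthesis, at 0.31, Naprt, of NAD synthesis, at 0.48, and the mitochondrial topoisomerase gene Top1mt at -0.33 (limma, adjusted p = 0.0115, 0.0302 and 0.00954). The call of Gfus was lost without control tumour 1, and that of Naprt without each tumour except hypomethylated tumour 1.

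The Gsdma genes, a cluster on chromosome 11, did not share this direction. Gsdma had values of 1.03, 0.55 and 0.80 in the control tumours, against -0.55, -0.74 and -0.93 in the hypomethylated tumours. The groups were separated by 1.11, with means of 0.79 ± 0.24 (SD, n = 3) and -0.74 ± 0.19 (SD, n = 3). The difference was -1.53 ± 0.14 (SE), a 2.89-fold lower level. Gsdma2 had values of 0.36, 0.33 and 0.33 against -0.33, -0.34 and -0.40, and a difference of -0.69 ± 0.05 (SE), 1.62-fold lower. Its control values agreed within 0.03, a narrower spread than in any other member.

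Gsdma3, in which mutations cause hair loss in mice, overlapped between the groups. Its values were 0.05, -0.03 and 0.28 in the control tumours, against -0.18, -0.07 and 0.03 in the hypomethylated tumours, and the difference was -0.17 ± 0.10 (SE). Of the 10 measured neighbours of the Gsdma cluster 1 was called higher and 2 lower (limma), beside the same 10.7% and 21.3%. Grb7, an adaptor of receptor tyrosine kinases, was at -0.59 ± 0.07 (SE; adjusted p = 0.00104), the Mediator subunit gene Med24 at -0.35 ± 0.06 (adjusted p = 0.00615) and the circadian repressor gene Nr1d1 at 0.43 ± 0.12 (adjusted p = 0.0320). The call of Nr1d1 was lost without control tumour 2 or 3 and without hypomethylated tumour 2 or 3.

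The other gasdermin genes, Gsdme and Pjvk, were not called as genes. Gsdme, which like Gsdmd can form pores once it is cut, had a difference of 0.09 ± 0.06 (SE; limma, adjusted p = 0.340), but this mean hides a disagreement of its 2 probe sets. The first had a difference of -0.15 ± 0.09 (SE; adjusted p = 0.282) and the second of 0.32 ± 0.08 (SE; adjusted p = 0.0317). Pjvk, a gasdermin needed for hearing, differed by -0.01 ± 0.06 (SE; adjusted p = 0.959), and its sign turned in some alternatives. Among the 10 measured neighbours of Gsdme 1 was higher, Cycs, which encodes cytochrome c (0.42; limma, adjusted p = 0.0336; not called without control tumour 1 or 3 or without hypomethylated tumour 2 or 3), and 1 lower, the neuropeptide gene Npy (-0.84; adjusted p = 0.00917), beside 10.7% and 21.3% of all genes. Around Pjvk the phosphodiesterase gene Pde11a was higher (1.97; adjusted p = 3.05e-04), and Fkbp7 and Osbpl6 were lower (-0.66 and -0.61; adjusted p = 0.00255 and 0.00144).

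Members of the family differed in how far single tumours set their values. Against the mean of control tumours 1 and 3, control tumour 2 was lower by -2.84 for Gsdmc2 and -4.14 for Gsdmc4, the 9th and 3rd lowest such values of all genes. For Gsdmc it was 0.15, for Gsdmd 0.20, for Gsdma2 -0.01 and for Gsdma -0.36. Over all genes 22 had control tumour 2 at least 2 below the mean of the other controls, and 0 had it at least 2 above. Gsdmc2 and Gsdmc4 are among those 22 genes.

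The genes nearest to Gsdmc2 over the 6 tumours were sought by the root mean square difference of log2 values, each gene centred on its own mean. The 10 nearest were Gsdmc4 (0.47), Krt20 (0.50), Clca1 (0.51), Ly6m (0.52), Retnlb (0.55), Adgrg7 (0.55), Muc3 (0.56), Sult1b1 (0.56), Prss30 (0.64) and Clec2h (0.68). Krt20 is a keratin of mature surface cells, Clca1 and Retnlb are secreted by goblet cells, Muc3 is a membrane mucin of the brush border, and Sult1b1 is a sulfotransferase. All 10 had their lowest value in control tumour 2 and their highest control value in control tumour 3, and 9 had their lowest hypomethylated value in hypomethylated tumour 1. The measure selects for the tumour order of Gsdmc2 and for a difference of its size, so neither is a separate result. Their differences lay between 3.05 and 4.06. Krt20 had values of -2.47, -3.95 and -0.95 in the control tumours, against 0.95, 1.24 and 1.00 in the hypomethylated tumours.

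**Figure D4:**
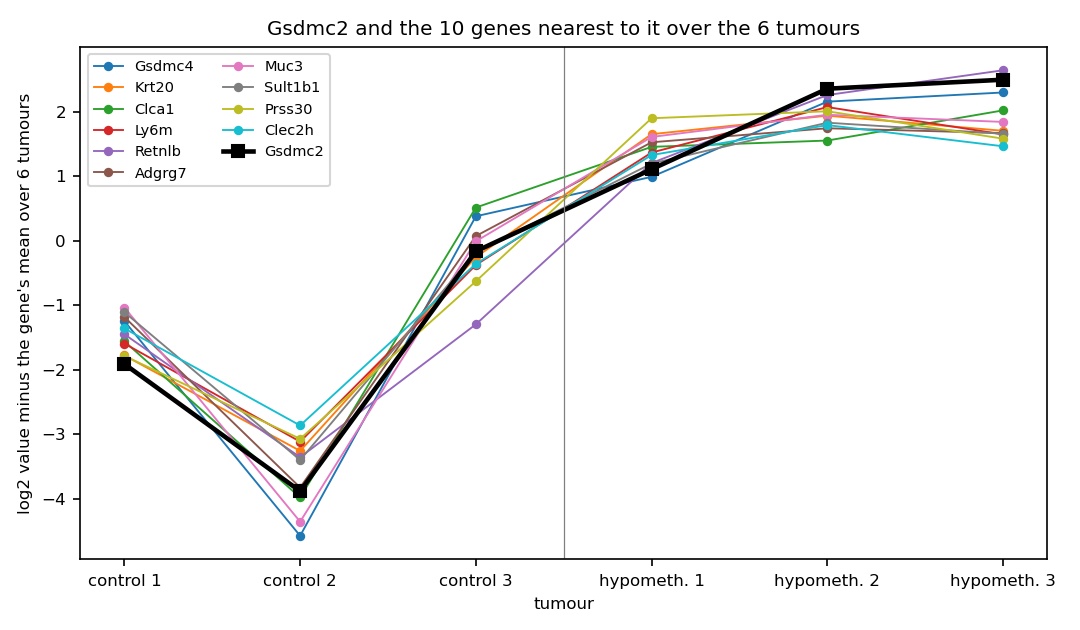
Log2 value minus the gene's mean over the 6 tumours (vertical axis) of Gsdmc2 (black squares) and of the 10 genes with the smallest root mean square difference from it, by tumour; lines only join the points of a gene. All 10 genes are lowest in control tumour 2, as is Gsdmc2, an order that the measure itself selects for.

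Epithelial and other markers moved in the same comparison, in which 10.7% of all genes were called higher and 21.3% lower. The mean centred log2 value over 10 epithelial markers ran from -0.71 to -0.37 in the control tumours and from 0.34 to 0.59 in the hypomethylated tumours. Of the 10 markers 8 were higher and none lower, and 6 or 7 were higher when 1 tumour was left out. The widest differences among them were those of Krt20, which is also among the genes nearest to Gsdmc2, and Cdx2, a transcription factor of intestinal epithelium, at 3.52 and 3.49. Without these 2, a choice made after seeing the data, the mean ran from -0.17 to -0.16 in the control tumours and from 0.13 to 0.31 in the hypomethylated tumours. Krt18 differed by -0.02 (limma, adjusted p = 0.873) and, like Epcam, did not pass. Of 11 fibroblast markers 7 were lower and 1 higher, and their mean ran from 0.08 to 0.42 in the control and from -0.50 to -0.08 in the hypomethylated tumours. Smooth muscle markers were lower in 5 of 8 (means of 0.15 to 0.34 against -0.37 to -0.12) and endothelial markers in 4 of 8, with 1 higher (0.04 to 0.15 against -0.36 to -0.04). The lower markers numbered 4 to 10 of fibroblasts, 3 to 5 of smooth muscle and 2 to 6 of endothelium when 1 tumour was left out. The fewest were 4 fibroblast markers without hypomethylated tumour 3, 3 of smooth muscle without hypomethylated tumour 2 or 3, and 2 of endothelium without control tumour 2 or 3 or hypomethylated tumour 2 or 3. The most fibroblast and endothelial markers came without hypomethylated tumour 1. The part of these cells in the gasdermin values was not tested. In bulk tumours fewer cells of a type and less RNA per cell cannot be told apart.

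Markers of cells in which single gasdermins are best known were set beside them. For Gsdma these were 15 markers of squamous epithelium, of which 2 were lower and 2 higher, beside 21.3% and 10.7% of all genes. Of the 15, 1 was higher without control tumour 1 or 2 or without hypomethylated tumour 2 or 3. Without hypomethylated tumour 1, 4 were lower. The keratin genes Krt14 and Krt6a differed by -0.78 (adjusted p = 0.0140) and -0.61 (adjusted p = 0.0082), and Krt13 and the cornified envelope gene Sprr1a by 0.25 and 1.73 (limma, adjusted p = 0.0275 and 4.81e-04). Unlike Krt14, which is also of the basal layer, the basal-layer markers Krt5, Krt15 and Trp63 overlapped between the groups. Their differences were -0.29, -0.13 and -0.01 (limma, adjusted p = 0.228, 0.757 and 0.944). For Gsdmd these were macrophage markers, 4 of 9 lower and none higher, and neutrophil markers, 1 of 9 higher and 1 lower. The shares of all genes were again 10.7% higher and 21.3% lower. The macrophage mean ran from -0.02 to 0.47 in the control tumours and from -0.80 to 0.03 in the hypomethylated ones, with hypomethylated tumour 1 at the upper end. The lower macrophage markers numbered 8 without that tumour and 0 without any 1 of the others. Over all genes 32% were called by limma in either direction. Of T and NK cell markers 0 of 9 were called, and 1 had an unadjusted p under 0.05. Of mast cell and eosinophil markers 0 of 10 were called (3 unadjusted), and of B and plasma cell markers 1 of 6, higher. The part of these cells in the values of Gsdma and Gsdmd was not tested.

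The machinery upstream of Gsdmd was examined through lists of pathway genes. Inflammasome sensors and adaptors were higher in 9 of 16 measured genes and lower in none, with a median difference of 0.72, beside 10.7% of all genes called higher and 21.3% lower and a median of -0.01. Leaving out each tumour in turn left 8 or 9 higher and none lower, except for 1 lower without hypomethylated tumour 1. Nlrp9b, a sensor of the intestinal epithelium, rose by 2.98 ± 0.17 (SE), 7.88-fold (limma, adjusted p = 2.08e-04). Its values were -1.56, -1.88 and -1.24 in the control tumours, against 1.24, 1.58 and 1.44 in the hypomethylated tumours, with no overlap and no tumour apart. The flagellin and needle-protein receptors Naip5 and Naip2 rose by 1.40 ± 0.10 and 1.11 ± 0.10, and the sensor Nlrp1b by 0.82 ± 0.06 (SE; adjusted p = 3.05e-04, 5.40e-04 and 3.72e-04). Naip genes are close paralogues whose transcripts the probes may share. Named after their values were seen, the sensor Nlrp6 rose by 1.53 ± 0.15 and Pycard, the adaptor that links sensors to caspase-1, by 1.25 ± 0.14 (SE; adjusted p = 7.66e-04 and 0.00122).

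Not all sensors did so. Nlrp3, the sensor of membrane damage best known from myeloid cells, differed by -0.20 ± 0.22 (SE; limma, adjusted p = 0.560), and Aim2, which senses DNA in the cytosol, by -0.11 ± 0.08 (SE; adjusted p = 0.354). Both were likewise named after their values were seen.

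Of the 4 measured caspases of the list 2 rose and 1 fell, beside 10.7% of all genes called higher and 21.3% lower. Casp1, the protease that cuts Gsdmd and matures interleukin-1β and interleukin-18, had values of -0.76, -0.49 and -0.62 in the control tumours, against 0.49, 0.57 and 0.54 in the hypomethylated tumours. It rose by 1.16 ± 0.08 (SE), 2.23-fold (limma, adjusted p = 2.94e-04). Casp8, which can cut Gsdmc and Gsdmd, rose by 0.59 ± 0.06 (SE; adjusted p = 6.64e-04). Casp4, the sensor of cytosolic lipopolysaccharide known as caspase-11 in mice, differed by 0.23 ± 0.10 (SE; adjusted p = 0.118), and was called without hypomethylated tumour 2, at 0.32, and with array weights, at 0.30. Casp12 fell by 1.07 ± 0.32 (SE; adjusted p = 0.0388), a call lost without any 1 of the control tumours, without hypomethylated tumour 2 or 3 and with robust eBayes (adjusted p = 0.0595).

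Il1b and Il18 encode cytokines that gasdermin pores release, and neither passed the test. Of 14 measured genes of the interleukin-1 family 3 were higher and 1 lower, beside 10.7% and 21.3% of all genes. The median difference of the 14 was 0.25, and without hypomethylated tumour 1, 4 were higher and 4 lower. Il1b had values of 0.03, 0.15 and -0.03 in the control tumours, against 0.37, -0.63 and -0.76 in the hypomethylated tumours, so hypomethylated tumour 1 stood above and the others below all controls (difference -0.39 ± 0.28 SE; limma, adjusted p = 0.339). Without hypomethylated tumour 1 it was lower by -0.75 and was called. Il18, an epithelial cytokine, had values of -0.14, -0.16 and 0.08 against -0.08, 0.66 and 0.52 (difference 0.44 ± 0.19 SE; adjusted p = 0.125). It was called without hypomethylated tumour 1, at 0.66, and with array weights, at 0.53.

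Il18bp, which binds and neutralises interleukin-18, rose by 0.93 ± 0.14 (SE; adjusted p = 0.00329), and Il1rn, the interleukin-1 receptor antagonist, by 0.70 ± 0.12 (SE; adjusted p = 0.00488). Il1r2, the decoy receptor of interleukin-1, and Il1f5, the interleukin-36 receptor antagonist, did not pass, with differences of -0.31 and 0.13 (limma, adjusted p = 0.172 and 0.334). Il1f8, which encodes interleukin-36β, rose by 0.43 ± 0.08 (adjusted p = 0.00598). Il1rap, the accessory chain of the receptor, fell by 0.53 ± 0.09 (limma, adjusted p = 0.0044).

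**Figure D5:**
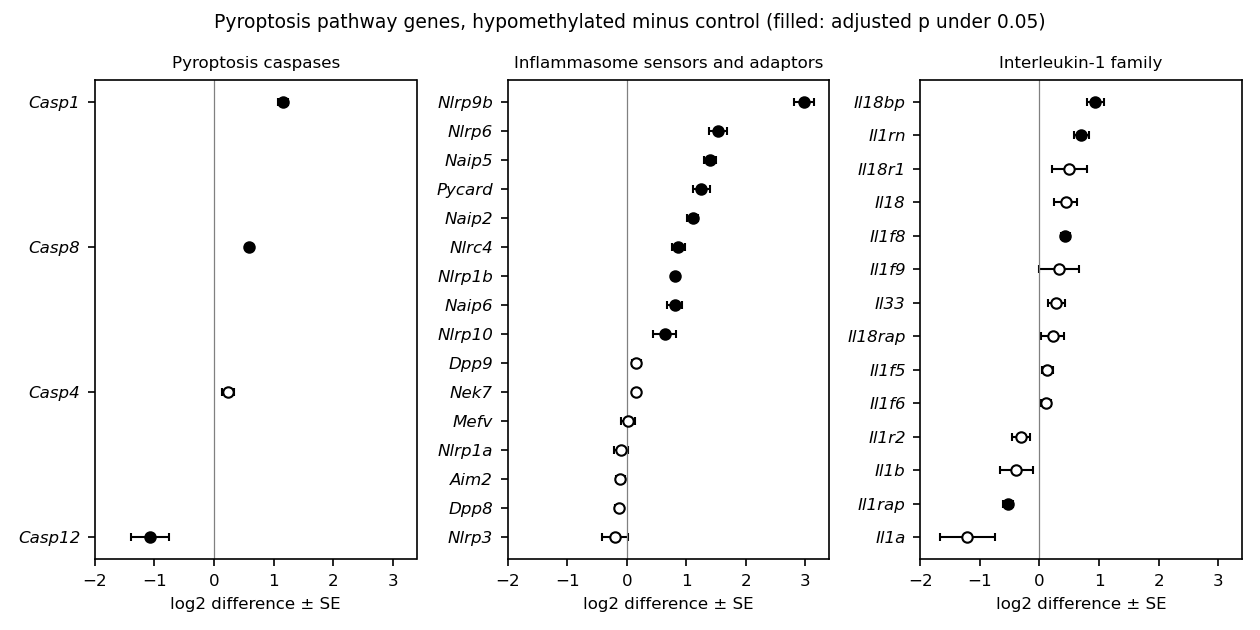
Log2 difference ± SE, hypomethylated minus control (horizontal axis), of the measured caspases, inflammasome genes and interleukin-1 family genes of the lists; filled points have a limma adjusted p under 0.05. Of the 16 inflammasome genes 9 are filled on the right and none on the left, led by Nlrp9b at 2.98, while Il1b and Il18 are open.

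Among 16 measured genes that control gasdermins or repair membranes 5 rose and none fell, beside 10.7% and 21.3% of all genes. The median difference of the 16 was 0.12. Of them 2 were higher without control tumour 1 or 2, and 3 without control tumour 3 or hypomethylated tumour 2. Without hypomethylated tumour 1, 2 were lower, and without hypomethylated tumour 3, 1 was lower. Irf8, a factor that drives Naip genes, rose by 1.42 ± 0.11 (SE; limma, adjusted p = 4.04e-04), and Zdhhc7, a palmitoyltransferase of Gsdmd, by 0.37 ± 0.08 (adjusted p = 0.010). Irf1 rose by 0.48 ± 0.14 (adjusted p = 0.0371) and Chmp3, of the ESCRT membrane repair complex, by 0.24 ± 0.05 (adjusted p = 0.0150). Both calls were lost without control tumour 1 or 2, and that of Irf1 also without control tumour 3 or hypomethylated tumour 1 or 2. Irf2, a transcription factor of Gsdmd, had a difference of 0.25 ± 0.09 (SE; adjusted p = 0.0832) and was called without hypomethylated tumour 1 (0.34). Of 6 granule genes, proteases and perforin, 0 were called by limma, beside 32% of all genes, and 1 had an unadjusted p under 0.05.

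Necroptosis, the other lytic death pathway, runs through the kinase Ripk3 and the pore protein Mlkl. Of 4 measured genes 3 rose and none fell, beside 10.7% and 21.3% of all genes, with a median of 0.63. Zbp1, a sensor of nucleic acids, rose by 1.24 ± 0.24 (SE; limma, adjusted p = 0.0087), Mlkl by 0.78 ± 0.11 (adjusted p = 0.00229) and Ripk3 by 0.49 ± 0.10 (adjusted p = 0.0103).

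In the type 2 cytokine pathway, which raises Gsdmc genes in the intestine, 4 of 14 measured genes rose and 1 fell. Over all genes 10.7% were called higher and 21.3% lower. The median of the 14 was 0.08, and 2 rose without control tumour 1 or without hypomethylated tumour 2 or 3. The receptor chains Il4ra and Il13ra1 rose by 0.77 ± 0.09 and 0.63 ± 0.06 (SE; limma, adjusted p = 0.00116 and 7.20e-04). Il4ra had values of -0.55, -0.29 and -0.35 in the control tumours, against 0.46, 0.38 and 0.29 in the hypomethylated tumours; unlike Gsdmc2 it was not lowest in control tumour 2. Il13ra2, the decoy receptor, fell by 0.28 ± 0.07 (adjusted p = 0.0242). Stat6, which carries the signal, differed by 0.00 ± 0.05, with a sign that turned in 5 of 13 alternatives (adjusted p = 0.988). The cytokine genes Il4, Il5, Il13 and Il25 had differences between 0.01 and 0.08 and did not pass. Trpm5, a channel of tuft cells, rose by 0.48 ± 0.12 (adjusted p = 0.0221), a call lost without control tumour 1 or 2 and without hypomethylated tumour 2 or 3. The call of Il13ra2 was lost without the same tumours.

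In all 7 pathway lists 26 of 74 measured genes were higher and 3 lower, beside 10.7% and 21.3% of all genes. Nlrp12, Naip1, Il1r1, Il1rl1, Ripk1, Il2rg and Jak3 had no probe set matched to them alone and are not analysed here.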

How the data were processed

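RNA of 6 colon tumours, 3 from each genotype, was biotin-labelled and hybridised to Affymetrix arrays, per the labels' protocols. The deposited table holds log2 values of 28856 probe sets, each centred by the authors on its median over the 6 arrays; the base was inferred from the values, and how arrays were normalized and probes summarised is not given in the sources used here. Arrays have no sequencing depth, and 6 arrays limit the precision. Of the probe sets 21789 carry 1 gene symbol in the platform annotation (updated by Entrez number to RefSeq GRCm38.p6), 1621 several and 5446 none. The first kind was averaged to 19938 genes; gasdermin probe sets with several symbols were read apart in a fit over all probe sets. Old names of 5 listed genes were matched by hand.

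Groups were compared with limma (lmFit and eBayes; version 3.58.1 in R 4.3.3), two-sided, with Benjamini-Hochberg adjustment over all genes or all probe sets, at a threshold of 0.05; the code was tested on simulated data. An exact permutation test of 3 against 3 cannot go below p = 0.1. Fold is 2 to the power of the log2 difference. Where tumours share a mouse, p-values cover technical or within-mouse spread only. Members and lists were chosen with earlier results of these data known. Named were all members and the other gasdermins, up to 4 called genes per pathway list and 3 per locus with the smallest p, 7 genes in any case (Casp1, Casp4, Casp8, Il1b, Il18, Stat6 and Irf2) and the 10 nearest to Gsdmc2; predicted genes were left out of the last. Neighbours are the 5 nearest measured genes on each side in RefSeq order. Alternatives were a replicate block, quantile normalization, median-centred arrays, array weights, robust eBayes, the most variable probe set per gene, a threshold of 0.01, and leaving out each tumour. Figures were drawn with Python 3.11.15 and matplotlib 3.10.9.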

Additional observations from a re-analysis of the deposited data

How the results depend on the processing

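Same-numbered tumours of the groups did not deviate together (correlations of deviations over genes of -0.29, -0.31 and -0.22 for numbers 1, 2 and 3). The main comparison used no pairing, and 3 tumours per group cannot settle whether the numbers mark pairs. With the number as a replicate block 3 members were called higher and 2 lower (Gsdmc4 was lost), 2 neighbour genes were called higher in place of 5, and 1 pathway gene lower in place of 3. Robust eBayes also called 3 members higher, without Gsdmc4, and 2 pathway genes lower, without Casp12. At a threshold of 0.01 the counts were 1 member higher (Gsdmd), 0 shared gasdermin probe sets, 1 neighbour higher and 1 pathway gene lower. Array weights gave 7 pathway genes lower. Leaving out each tumour in turn left 2 to 4 members called higher, 0 to 2 shared gasdermin probe sets, 2 to 5 neighbours higher, and 1 to 10 pathway genes lower; the 10 came without hypomethylated replicate 1. Members called lower numbered 2 under every alternative run. The sign turned in some alternatives for Pjvk (-0.037 to 0.035 when 1 tumour was left out), for 1 probe set of Gsdmcl1, Gsdmcl2 and Gsdmcl-ps (-0.0061 to 0.12 likewise) and for Stat6 (-0.026 to 0.016 likewise, -0.00072 under quantile normalization and -0.015 with array weights); none of these was called. The cause of these changes was not tested. Gsdmc2 ranged from 2.93 to 4.88 over its alternatives and Gsdmc4 from 2.25 to 4.72. No background signal was at hand, so low tumours may lie at the array's floor, and folds against them then understate the difference.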
